A study of Mus musculus with 4 samples.

Results

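FOXO factors are forkhead transcription factors, and the genes followed here are 3 of them, Foxo1, Foxo3 and Foxo4, with 7 genes that are known as their targets or as parts of the same circuit of metabolism and quiescence: Sesn1, Sesn3, Sgk1, Cdkn1b, Ccng2, Pik3ip1 and Bach2. They were chosen by name, with earlier results of these data known. Every probe set of the array whose only annotated gene symbol was one of these 10 was taken. This gave 19 probe sets for 9 of the 10 genes, out of 45037 probe sets and 17097 named genes in all. Pik3ip1, which encodes an inhibitor of phosphoinositide 3-kinase (PI3K), had no such probe set, since its 2 probe sets are annotated to Limk2 as well, and it is not analysed here.

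The RNA came from flow-sorted thymocytes of C57BL/6 mice at the CD4+CD8+ stage, when a developing T cell carries both coreceptors, and was read on Affymetrix 3' arrays. The mutant samples, 2 arrays, are labelled hCD2-iCre x Gfi1fl/fl: both Gfi1 alleles are floxed, and the iCre recombinase is driven by the human CD2 promoter, which acts in lymphoid cells. The other 2 arrays are labelled WT, and the labels give them neither the recombinase nor a floxed allele, so effects of the recombinase itself cannot be told apart from those of the floxed alleles. No age, litter or pooling is stated, nor whether replicates came from separate animals, so a p-value here speaks only of the spread between arrays, which may be technical, and 2 arrays per label limit the precision. They are called the Gfi1fl/fl-labelled and the WT-labelled arrays here.

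In resting lymphocytes FOXO proteins sit in the nucleus and switch on genes of quiescence, survival and migration. Signals through PI3K activate the kinases AKT and SGK1, which phosphorylate FOXO proteins and send them out of the nucleus, so FOXO activity is set largely after translation and need not show in FOXO mRNA. Among the targets, sestrins restrain the growth kinase complex mTORC1, the Cdkn1b product inhibits cyclin-dependent kinases, and FOXO1 in T cells maintains the migration factor Klf2.

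Of the 9 measured genes, Sesn3 and Sgk1 had higher signal on the Gfi1fl/fl-labelled arrays, 2.93-fold and 2.59-fold, and both passed the test. Sesn1, the other measured sestrin among the members, ran the opposite way on all 3 of its probe sets, at 0.711 to 0.777 of the WT signal, without passing. Bach2 was higher on all 3 of its probe sets, by up to 2.00-fold, without passing. In bulk RNA, a change in the share of cells of a type cannot be told apart from a change in RNA per cell. The probe sets of Foxo1, Foxo3, Foxo4, Cdkn1b and Ccng2 differed by at most 0.38 in size on the log2 scale, and none passed. The single Foxo1 probe set lay below the median on every array, too dim to show a lower level. The signal of the targeted gene itself was not lower on the Gfi1fl/fl-labelled arrays but higher. There the 1 named Gfi1 probe set read 11.47 and 11.32, against 10.17 and 10.08 on the WT-labelled arrays, a difference of 1.27 ± 0.14 (SE; limma, adjusted p = 0.00781). Where that probe set lies relative to the floxed part is not given in the sources used here, and if it lies outside, it checks nothing. Every direction is therefore one between arrays labelled hCD2-iCre x Gfi1fl/fl and arrays labelled WT.

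In the limma test over all 45037 probe sets, 2 of the 19 member probe sets passed an adjusted p of 0.05 (Benjamini-Hochberg) and are referred to as called, both higher and none lower, where 0.766% of all probe sets were called in either direction and 0.664% were called higher. With each gene read by its brightest probe set, 2 of the 9 genes were called, again both higher, against 1.11% of the 17097 genes in either direction and 0.942% called higher. The signals of the 2 labels did not overlap for 14 of the 19 member probe sets (73.7%), 7 higher and 7 lower, whereas 34.7% of all probe sets did not overlap. Members were chosen with earlier results known, and 17 of the 19 probe sets lay above the median on every array. The shares of members and of all probe sets therefore describe the data and do not test the members. Probe sets of 1 gene read the same transcripts and are not independent: those 14 belonged to 8 genes, and the brightest probe set did not overlap for 6 of the 9 genes. The median difference was 0.02 over the member probe sets and -0.01 over all probe sets.

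**Figure D1:**
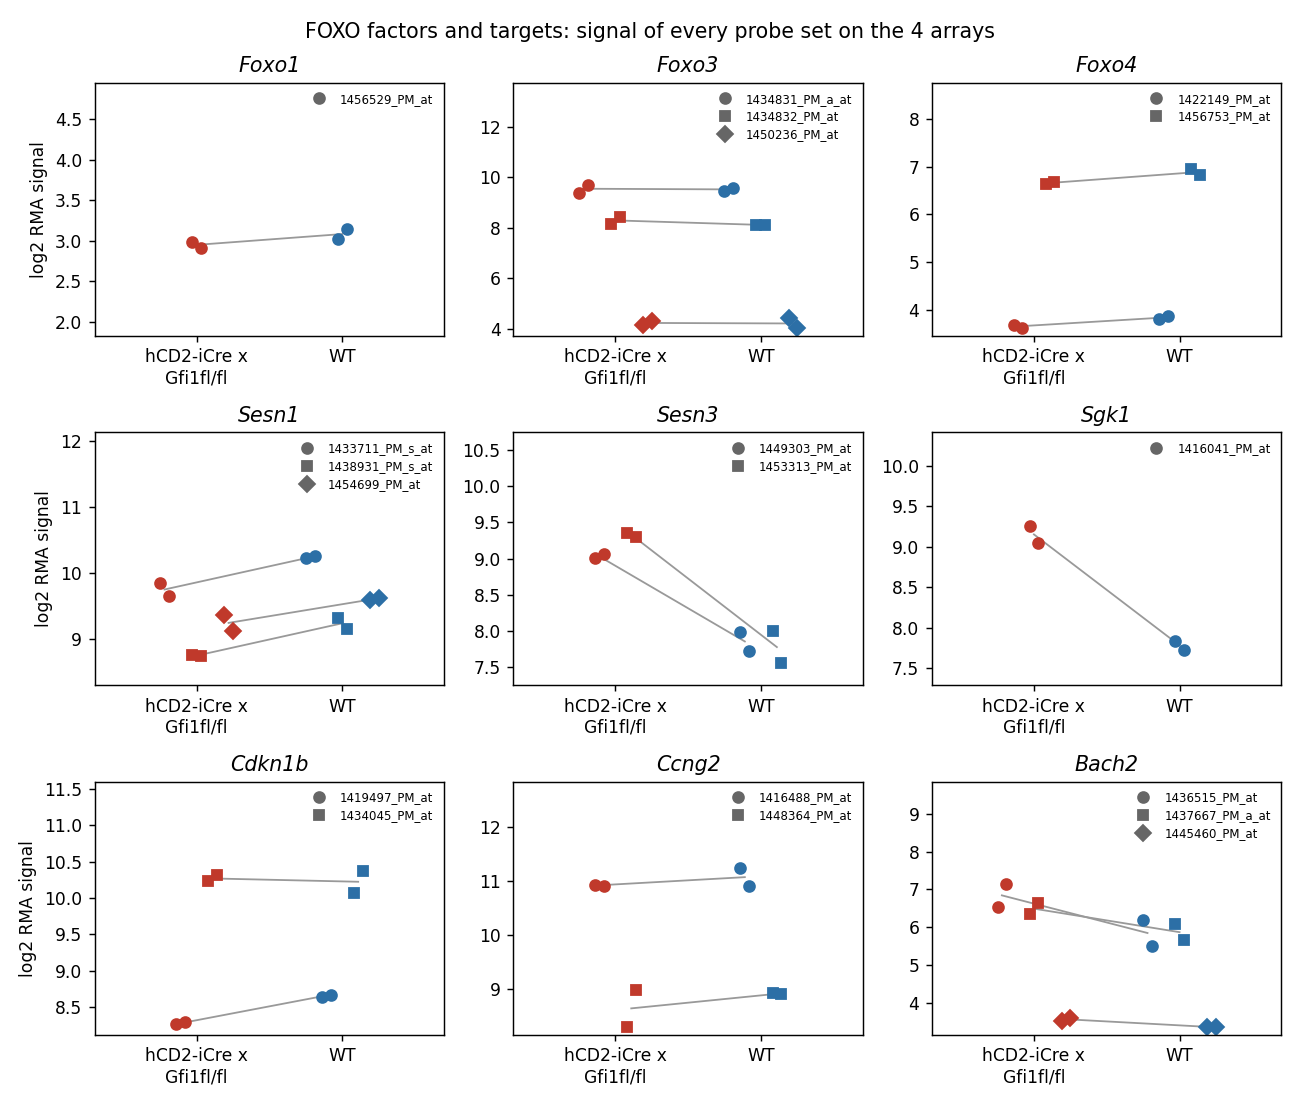
Log2 RMA signal (vertical axis) of each of the 19 probe sets on the Gfi1fl/fl-labelled arrays (red, left) and the WT-labelled arrays (blue, right), 1 panel per gene, with 1 marker shape per probe set and grey lines joining the group means. Both Sesn3 probe sets and the Sgk1 probe set sit above 9.0 on both Gfi1fl/fl-labelled arrays, against at most 8.00 on the WT-labelled arrays, while the 3 Sesn1 probe sets are lower on both Gfi1fl/fl-labelled arrays.

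The sequences around the annotated starts of the 2 genes that were called, Sesn3 and Sgk1, and of Sesn1, whose values ran the other way, are shown because FOXO and GFI1 proteins bind known short motifs. Each window holds 250 bases before the start of the gene and 50 after, on the plus strand of RefSeq's GRCm38.p6 assembly. The capitals mark the FOXO motif GTAAACA (on the other strand TGTTTAC) and the GFI1 core AATC (on the other strand GATT), and these motifs do not overlap in the windows.

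Sesn3, chr9:14276051-14276350: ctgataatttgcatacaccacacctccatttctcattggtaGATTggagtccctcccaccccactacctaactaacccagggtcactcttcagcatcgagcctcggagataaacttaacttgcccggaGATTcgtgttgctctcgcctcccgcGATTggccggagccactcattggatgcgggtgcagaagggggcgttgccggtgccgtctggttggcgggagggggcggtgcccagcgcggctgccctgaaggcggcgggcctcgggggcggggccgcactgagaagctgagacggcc
Sgk1, chr10:21881934-21882233: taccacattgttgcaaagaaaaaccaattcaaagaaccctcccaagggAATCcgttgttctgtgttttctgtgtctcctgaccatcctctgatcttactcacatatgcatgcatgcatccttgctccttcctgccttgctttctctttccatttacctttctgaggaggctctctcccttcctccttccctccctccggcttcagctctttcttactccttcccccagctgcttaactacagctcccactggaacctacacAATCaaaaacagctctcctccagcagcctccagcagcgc
Sesn1, chr10:41810324-41810623: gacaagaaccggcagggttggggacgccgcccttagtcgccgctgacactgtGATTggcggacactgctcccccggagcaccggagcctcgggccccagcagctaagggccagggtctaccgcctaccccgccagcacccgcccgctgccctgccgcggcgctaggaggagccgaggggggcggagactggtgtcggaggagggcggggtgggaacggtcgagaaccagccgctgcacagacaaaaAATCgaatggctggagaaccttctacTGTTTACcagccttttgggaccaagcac

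The Sesn3 window holds 3 GFI1 cores and no GTAAACA, and the Sgk1 window 2 cores and no GTAAACA. The Sesn1 window holds 2 cores and 1 GTAAACA, which lies on the minus strand 22 bases past the start. For the 9 members in the promoter table (all but Foxo4) there were 15 windows, since Sgk1 has 6 annotated starts and Sesn1 has 2. Among the 15, GTAAACA was found in 1, the Sesn1 window above, and in 3.65% of the 32851 windows of all genes. The shorter TAAACA, which lies within GTAAACA, was found in 2, those of Sesn1 and Cdkn1b, and in 13.4% of all windows. The core AATC was found in 12 of the 15 and in 73.1% of all windows, so it is common in any window of this length. The other 5 Sgk1 windows held between 0 and 6 cores, and the other Sesn1 window held none. Which of these starts is used in thymocytes was not measured here. A match is only a run of letters, and nothing about binding was measured here.

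The FOXO genes come first. Foxo1 (chromosome 3, 52268337 to 52350109, GRCm38.p6) encodes the main FOXO protein of T cells and was read by the single probe set 1456529_PM_at. Its log2 signal was 2.99 and 2.91 on the Gfi1fl/fl-labelled arrays, against 3.02 and 3.15 on the WT-labelled arrays. The groups did not overlap, but the gap between them was 0.03, and all 4 values lay below the medians of their arrays, between percentiles 18.9 and 36.3 of all probe sets. The difference was -0.13, with a 95% interval of -0.37 to 0.10 (limma, adjusted p = 0.891). At so dim a signal a lower Foxo1 level was not detectable with this probe set.

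Foxo3 (chromosome 10, 42181845 to 42276695) encodes a second FOXO protein of lymphocytes and had 3 probe sets, of which 2 were designed on the same sequence. The brightest, 1434831_PM_a_at, read 9.39 and 9.70 on the Gfi1fl/fl-labelled arrays, against 9.45 and 9.59 on the WT-labelled arrays. The WT values lie inside the spread of the other group. Its difference of 0.03 had a 95% interval of -0.41 to 0.47, which spans 0.750-fold to 1.38-fold (limma, adjusted p = 1). The second, 1434832_PM_at, read 8.17 and 8.41 on the Gfi1fl/fl-labelled arrays, against 8.12 and 8.10 on the WT-labelled arrays, and differed by 0.18 without passing (limma, adjusted p = 0.970). The third, 1450236_PM_at, differed by 0.02 (limma, adjusted p = 1) and its groups overlapped. The upper ends of the 3 intervals lay between 1.38-fold and 1.61-fold.

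Foxo4 (chromosome X, 101254261 to 101260873) encodes the third FOXO protein and had 2 probe sets. The brighter, 1456753_PM_at, read 6.63 and 6.68 on the Gfi1fl/fl-labelled arrays, against 6.94 and 6.82 on the WT-labelled arrays. The dimmer, 1422149_PM_at, read 3.68 and 3.62 on the Gfi1fl/fl-labelled arrays, against 3.80 and 3.87 on the WT-labelled arrays. Both probe sets were lower on both Gfi1fl/fl-labelled arrays without overlap. The differences, -0.23 and -0.19, did not pass (limma, adjusted p = 0.953 and 0.920).

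Sgk1 (chromosome 10, 21882184 to 21999903) encodes the serum- and glucocorticoid-regulated kinase, which acts downstream of PI3K and phosphorylates FOXO proteins. Its probe set, 1416041_PM_at, read 9.25 and 9.05 on the Gfi1fl/fl-labelled arrays, against 7.84 and 7.73 on the WT-labelled arrays. The gap between the groups, 1.22, was larger than the distance between replicates of either label. Sgk1 rose by 1.37 ± 0.21 (SE) on the log2 scale, 2.59-fold with a 95% interval of 1.84 to 3.63 (limma, adjusted p = 0.0417). The call lay close to the threshold: the difference stayed between 1.27 and 1.47 when any 1 array was left out, but the adjusted p then lay between 0.0544 and 0.211, so each of the 4 arrays was needed for it. In the fit of 17097 genes the adjusted p was 0.0255, and it was lost without WT replicate 1 (0.124) or WT replicate 2 (0.152).

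The 2 sestrin genes among the members ran in opposite directions, a contrast between genes that was not itself tested. Sesn3 (chromosome 9, 14276301 to 14326134), which encodes a stress-inducible inhibitor of mTORC1 signalling and is a known FOXO target, had 2 probe sets. The first, 1453313_PM_at, read 9.36 and 9.30 on the Gfi1fl/fl-labelled arrays, against 8.00 and 7.56 on the WT-labelled arrays. The second, 1449303_PM_at, read 9.00 and 9.06 on the Gfi1fl/fl-labelled arrays, against 7.99 and 7.72 on the WT-labelled arrays. Both probe sets thus separated the labels by more than 1.00 on the log2 scale, and the WT-labelled arrays differed more between themselves than the Gfi1fl/fl-labelled arrays did. Sesn3 rose by 1.55 ± 0.23 (SE) on 1453313_PM_at, 2.93-fold with a 95% interval of 2.01 to 4.26 (limma, adjusted p = 0.0382). On 1449303_PM_at the difference was 1.17 ± 0.21 (SE), 2.25-fold (limma, adjusted p = 0.0847), which lay just outside the threshold.

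The Sesn3 call on 1453313_PM_at also depended on all 4 arrays: with 1 left out the difference was between 1.33 and 1.77 and the adjusted p between 0.0588 and 0.176. In the fit of genes the adjusted p was 0.0249, and the call was lost without WT replicate 2. Calls kept there in the other fits that left out an array are no sign of stability, since each sets 1 array against 2. Without an intensity trend in the prior variance, the calls of both probe sets were lost (adjusted p = 0.0830 for Sesn3 and 0.0502 for Sgk1).

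Sesn1 (chromosome 10, 41810574 to 41908436), a sestrin gene known as a target of both FOXO factors and p53, had 3 probe sets, of which 2 were designed on the same sequence. The brightest, 1433711_PM_s_at, read 9.85 and 9.64 on the Gfi1fl/fl-labelled arrays, against 10.22 and 10.25 on the WT-labelled arrays. The second, 1438931_PM_s_at, read 8.74 and 8.73 on the Gfi1fl/fl-labelled arrays, against 9.32 and 9.14 on the WT-labelled arrays. All 3 probe sets were lower on both Gfi1fl/fl-labelled arrays, with gaps of 0.22 to 0.40 between the groups. Their differences were -0.49, -0.49 and -0.36, and none passed (limma, adjusted p = 0.439, 0.571 and 0.742). The unadjusted p of the first 2 was 0.0177 and 0.0342, within a table in which 3441 of 45037 probe sets had an unadjusted p under 0.05. Sesn2, the third mouse sestrin gene, differed by -0.09 on its brightest probe set (limma, adjusted p = 1.00).

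**Figure D2:**
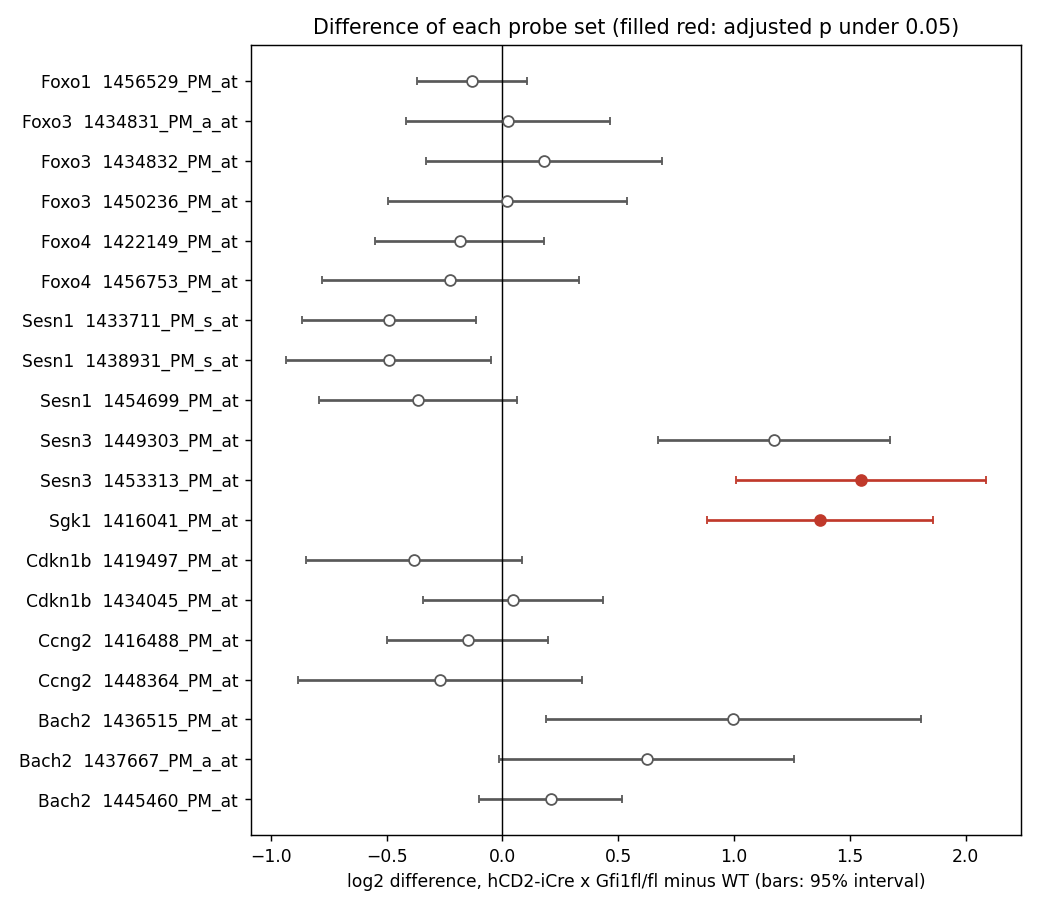
Log2 difference, hCD2-iCre x Gfi1fl/fl minus WT (horizontal axis), of each of the 19 probe sets with its 95% interval from limma (n = 2 arrays per label), where filled red points were called. The intervals are not adjusted for the number of probe sets. Those of Sesn3 and Sgk1 lie wholly above 0.67. Those of 2 of the 3 Sesn1 probe sets lie wholly below 0 and that of Bach2 1436515_PM_at wholly above 0, but no Sesn1 or Bach2 probe set was called. The intervals of Foxo1, Foxo3, Foxo4, Cdkn1b and Ccng2 span 0.

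Neither member that restrains the cell cycle passed the test. Cdkn1b (chromosome 6, 134920401 to 134925525), which encodes the kinase inhibitor p27Kip1, had 2 probe sets that disagreed. On 1434045_PM_at the signal was 10.23 and 10.31 on the Gfi1fl/fl-labelled arrays, against 10.07 and 10.38 on the WT-labelled arrays. On 1419497_PM_at it was 8.26 and 8.29 on the Gfi1fl/fl-labelled arrays, against 8.64 and 8.67 on the WT-labelled arrays. The groups overlapped on the first probe set, while on the second they were separated by 0.36, with an SD of 0.02 within each label. Neither passed (differences of 0.05 and -0.38; limma, adjusted p = 1 and 0.766).

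Ccng2 (chromosome 5, 93267573 to 93276231) encodes cyclin G2, an atypical cyclin of cells that leave the cycle, and its 2 probe sets were designed on the same sequence. The brighter, 1416488_PM_at, read 10.92 and 10.91 on the Gfi1fl/fl-labelled arrays, against 11.23 and 10.91 on the WT-labelled arrays. The dimmer, 1448364_PM_at, read 8.31 and 8.98 on the Gfi1fl/fl-labelled arrays, against 8.92 and 8.91 on the WT-labelled arrays. The groups overlapped on both, and the low value of 1448364_PM_at stood on hCD2-iCre x Gfi1fl/fl replicate 1 alone. The differences, -0.15 and -0.27, did not pass (limma, adjusted p = 0.941 and 0.940).

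The 2 Gfi1fl/fl-labelled arrays stood apart from each other in cell cycle genes. The mean log2 signal of 29 measured cell cycle genes was 7.72 and 9.30 on the Gfi1fl/fl-labelled arrays, against 8.38 and 8.69 on the WT-labelled arrays, and all 29 were higher on hCD2-iCre x Gfi1fl/fl replicate 2 than on replicate 1. By limma none of the 29 was called and 1 had an unadjusted p under 0.05, and the differences largest in size were those of the cyclin genes Ccnd2 and Ccne1 (2.31 and 0.79; limma, adjusted p = 0.136 and 0.607). With this mean as a covariate, which leaves 1 residual degree of freedom per probe set, Sesn3 (1453313_PM_at) and Sgk1 differed by 1.55 and 1.37 (limma, adjusted p = 0.00341 and 0.00472), and the second Sesn3 probe set was called as well (0.0168). The average of this mean hardly differed between the labels, so the covariate could hardly move a difference between them. It took up spread between replicates, and calls over all probe sets rose from 345 to 807, so the smaller adjusted p is no support. The part of the cell cycle in the differences was thus not tested. Cdkn1b and Ccng2 were not called in the covariate fit either (adjusted p of at least 0.692).

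Bach2 (chromosome 4, 32238413 to 32586109) encodes a transcriptional repressor that holds lymphocytes in a naive or resting state, and it had 3 probe sets. The brightest, 1436515_PM_at, read 6.54 and 7.15 on the Gfi1fl/fl-labelled arrays, against 6.20 and 5.49 on the WT-labelled arrays. The second, 1437667_PM_a_at, read 6.34 and 6.64 on the Gfi1fl/fl-labelled arrays, against 6.07 and 5.66 on the WT-labelled arrays. All 3 probe sets were higher on both Gfi1fl/fl-labelled arrays, but on 1436515_PM_at the SD within a label, 0.43 and 0.50, was larger than the gap of 0.34 between the groups. The differences were 1.00 ± 0.34, 0.62 ± 0.27 and 0.21 ± 0.13 (SE; limma, adjusted p = 0.491, 0.668 and 0.840). The third probe set lay near the array medians, between percentiles 44.1 and 51.2.

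**Figure D3:**
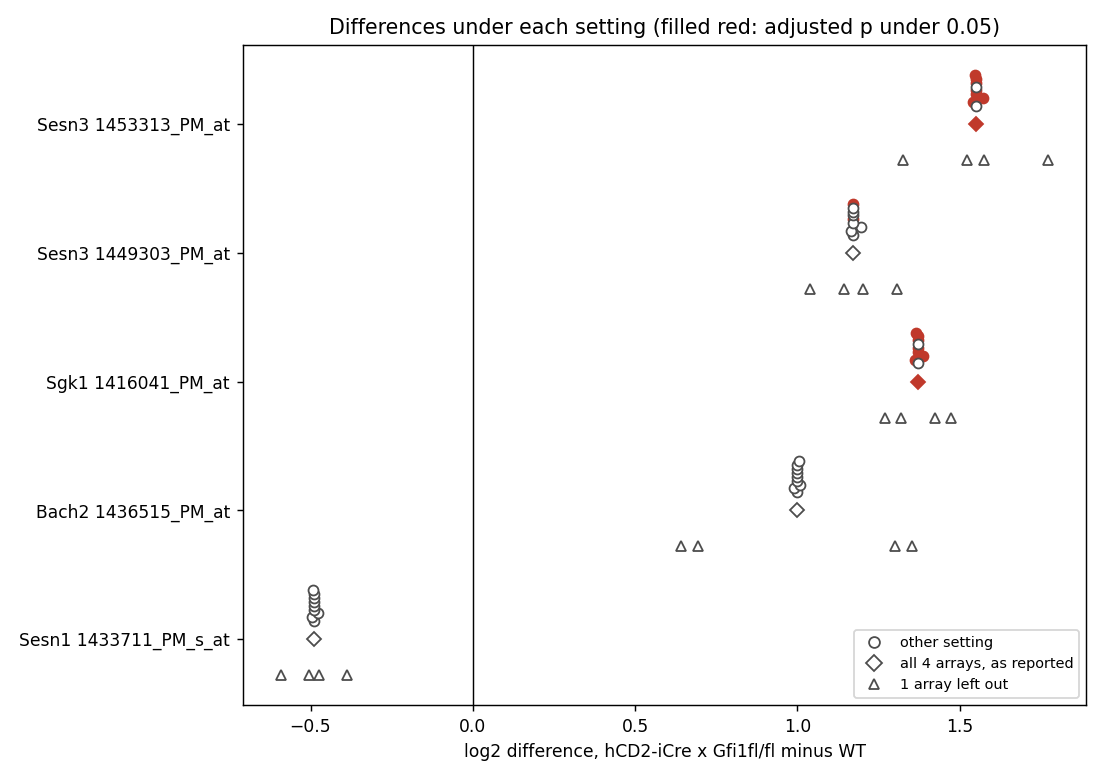
Log2 difference, hCD2-iCre x Gfi1fl/fl minus WT (horizontal axis), of 5 probe sets under the reported setting (diamonds), with 1 array left out (triangles) and under the other settings (circles), where filled red markers had an adjusted p under 0.05. The differences of Sesn3 and Sgk1 stay between 1.04 and 1.77 and those of Sesn1 between -0.59 and -0.39, while no triangle is filled.

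The wider pathway was read from 4 further gene lists, each gene by its brightest probe set, in the fit of 17097 genes. Upstream of FOXO, 29 of 32 listed genes of the PI3K, AKT and mTOR axis were measured, and none was called in either direction, where 0.942% of all genes were called higher and 0.170% lower. By limma 6 of the 29 had an unadjusted p under 0.05, where 3441 of all 45037 probe sets did in the fit of probe sets. No such share was taken over genes, so this count and those of the other lists only describe the lists. The median difference was -0.01, against -0.02 over all genes. The largest difference was that of Inpp4b, which encodes a lipid phosphatase that opposes PI3K signalling. It read 3.80 and 3.70 on the Gfi1fl/fl-labelled arrays, against 7.68 and 5.42 on the WT-labelled arrays. The groups were 1.62 apart, and the SD was 0.07 on the Gfi1fl/fl-labelled arrays and 1.60 on the WT-labelled arrays. The difference of -2.80 ± 0.65 (SE) did not pass (limma, adjusted p = 0.150). With 1 array left out the difference ranged from -3.93 (without WT replicate 2) to -1.67 (without WT replicate 1). As the mean of its probe sets, Inpp4b differed by -1.50 (limma, adjusted p = 0.237). Phlpp1, which encodes a phosphatase that dephosphorylates AKT, differed by 0.78 (adjusted p = 0.335).

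Among FOXO targets of T cell trafficking and differentiation, 13 of 18 listed genes were measured, and the other 5 are not analysed here. Of the 13, 3 were called higher, none lower and 10 in neither direction. Over all genes, 0.942% were called higher and 0.170% lower. The difference was above 0 for 10 of the 13 and below 0 for 3, lowest for Bcl6 at -0.59 (limma, adjusted p = 0.268). By limma 6 of the 13 had an unadjusted p under 0.05, and the median difference was 0.30. The list was drawn up with earlier results of these data known, so its share is not a test. Klf2 read 9.66 and 9.97 on the Gfi1fl/fl-labelled arrays, against 4.70 and 4.53 on the WT-labelled arrays, a 36.8-fold rise (limma, adjusted p = 0.000301). Ctla4, an inhibitory receptor gene, read 7.56 and 6.71 on the Gfi1fl/fl-labelled arrays, against 2.99 and 3.56 on the WT-labelled arrays, a rise of 3.86 on the log2 scale (limma, adjusted p = 0.00395). Its WT values lay near or below the array medians of 3.53 to 3.55, so the size is only a lower limit if they are background. S1pr1, a thymic exit receptor gene, rose by 1.43 (limma, adjusted p = 0.0361). Its call was lost without the intensity trend (adjusted p = 0.0548) and without WT replicate 1 or WT replicate 2 (0.0949 and 0.241), and the count of called genes was 2 in each of these fits.

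Among 26 measured of 29 listed FOXO targets of metabolism, stress, autophagy and cell death, none was called, where 1.11% of all genes were. By limma 3 of the 26 had an unadjusted p under 0.05, and the median difference was -0.04. Gadd45b, a stress-inducible growth arrest gene, read 7.56 and 6.71 on the Gfi1fl/fl-labelled arrays, against 6.05 and 5.71 on the WT-labelled arrays, a difference of 1.25 ± 0.34 (SE; limma, adjusted p = 0.230). It differed by 0.82 without hCD2-iCre x Gfi1fl/fl replicate 1 and by 1.68 without replicate 2. Cdkn2d, another inhibitor of cyclin-dependent kinases, differed by -0.51 (adjusted p = 0.242). The other 24 genes of this list differed by less than Cdkn2d in size.

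Among 22 measured of 23 further quiescence and growth-restraint genes, none was called, where 1.11% of all genes were. By limma 2 of the 22 had an unadjusted p under 0.05, and the median difference was 0.01. Vsir, an inhibitory receptor gene of naive T cells, read 7.23 and 6.94 on the Gfi1fl/fl-labelled arrays, against 8.22 and 8.34 on the WT-labelled arrays. Ms4a4b, a membrane protein gene of T cells, read 9.68 and 9.67 on the Gfi1fl/fl-labelled arrays, against 8.72 and 8.48 on the WT-labelled arrays. Both pairs of groups were separated by more than 0.94, and neither passed (differences of -1.19 and 1.07; limma, adjusted p = 0.0746 and 0.0528). With 1 array left out the difference of Ms4a4b ranged from 0.95 to 1.19 and that of Vsir from -1.34 to -1.04. As the mean of its probe sets, Ms4a4b differed by 0.72 (limma, adjusted p = 0.243).

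**Figure D4:**
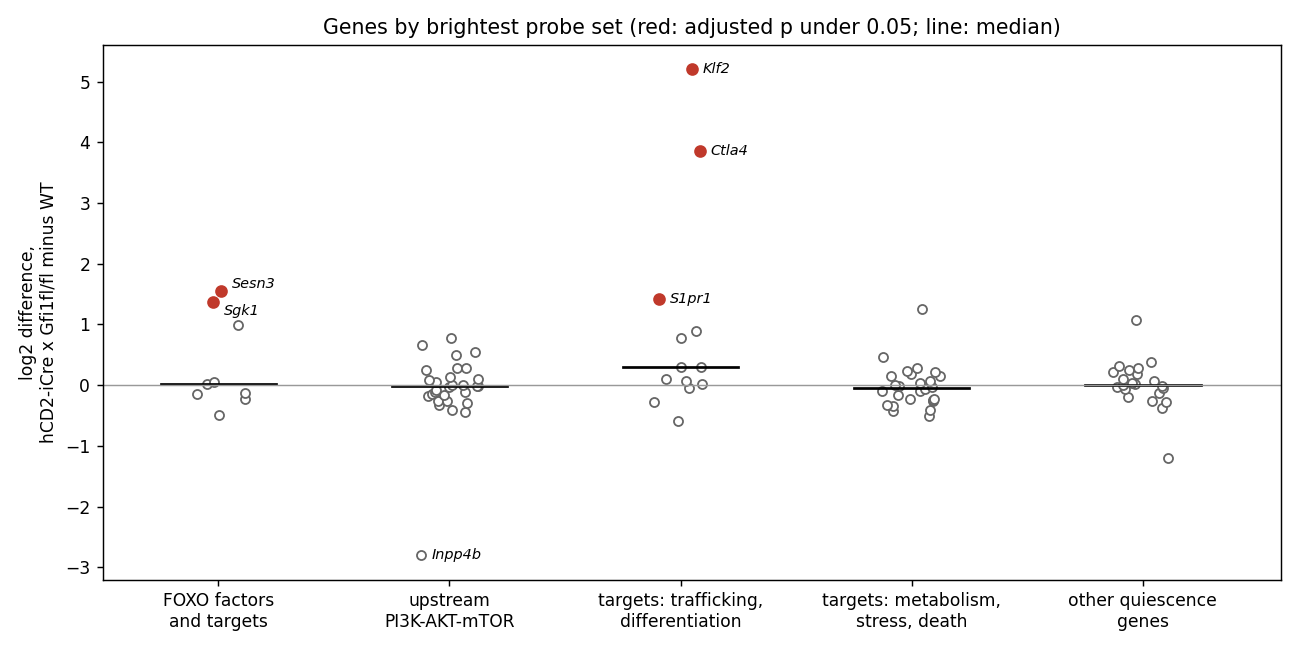
Log2 difference, hCD2-iCre x Gfi1fl/fl minus WT (vertical axis), of each gene by its brightest probe set, for the 9 measured members and the 4 lists around them, where red points were called and the line is the median. The called genes are Sesn3, Sgk1, Klf2, Ctla4 and S1pr1, all higher on the Gfi1fl/fl-labelled arrays, and the list medians lie between -0.04 and 0.30.

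All 14 measured double-positive thymocyte markers lay above the array medians on all 4 arrays. Their summed linear signal was 36522 to 39731 on the Gfi1fl/fl-labelled arrays, against 40633 to 44293 on the WT-labelled arrays. The difference was below 0 for 12 of the 14. Only Dntt was called (a difference of -0.69), where 0.170% of all genes were called lower. Without Dntt the sum was 33423 to 36528 on the Gfi1fl/fl-labelled arrays, against 35831 to 38910 on the WT-labelled arrays, and these ranges overlap.

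Markers of other cells differed between the labels in part. Among 13 markers of gamma-delta T cells, NK cells and innate lymphoid cells, 3 were called higher, where 0.942% of all genes were called higher. The summed signal of the 13 was 3628 to 4316 on the Gfi1fl/fl-labelled arrays, against 313.2 to 319.3 on the WT-labelled arrays. The called genes were Il18r1, Cd163l1 and Maf, with differences of 7.60, 7.45 and 3.96 (limma, adjusted p of at most 0.00487). The WT values of Il18r1 and Maf lay below the array medians, as did 1 of those of Cd163l1, so these sizes too are lower limits if such values are background. Blk and Nkg7 differed by 1.24 and 0.99 (adjusted p = 0.206 and 0.215), and Zbtb16 by 0.03. In all, 6 of the 13 lay below the median on all 4 arrays, among them Sox13, Ncr1, Tbx21 and Eomes. Without Il18r1 and Cd163l1 the sum was 324 to 492 on the Gfi1fl/fl-labelled arrays, against 291 to 302 on the WT-labelled arrays. That sum still holds Maf, which read 7.42 and 6.23 on the Gfi1fl/fl-labelled arrays, against 2.83 and 2.92 on the WT-labelled arrays. A sum without Maf as well was not taken.

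Of 14 myeloid and dendritic markers, Ctss alone was called, with a difference of 4.59, where 0.942% of all genes were called higher. The summed signal of the 14 was 1668 to 2252 on the Gfi1fl/fl-labelled arrays, against 781 to 945 on the WT-labelled arrays. Without Ctss it was 624 to 846 on the Gfi1fl/fl-labelled arrays, against 740.2 to 883 on the WT-labelled arrays, and these ranges overlap. Itgax, Tyrobp, Fcer1g, Cd14, C1qa and C1qb lay below the median on all 4 arrays. By limma none of 12 thymic epithelial and stromal markers was called, while 3 had an unadjusted p under 0.05. Their summed signal was 772 to 1153 on the Gfi1fl/fl-labelled arrays, against 416 to 556 on the WT-labelled arrays. Epcam and Cldn4, which lay above the median on all 4 arrays, differed most (1.68 and 1.26; adjusted p = 0.163 and 0.204). Without these 2 the sum was 204 to 226 on the Gfi1fl/fl-labelled arrays, against 196 to 211 on the WT-labelled arrays, and 8 of the 12 lay below the median on all 4 arrays, Krt5, Krt8, Krt14 and Foxn1 among them.

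By limma none of 7 B cell markers was called, with 1 at an unadjusted p under 0.05, and their summed signal was 131.3 to 225 on the Gfi1fl/fl-labelled arrays, against 287 to 362 on the WT-labelled arrays. The differences largest in size were those of Cd79b and Ms4a1 (-1.23 and 0.19; adjusted p = 0.347 and 0.853). None of 7 erythroid and platelet markers was called, also with 1 at an unadjusted p under 0.05, and their sum was 572 to 1492 on the Gfi1fl/fl-labelled arrays, against 569.6 to 1397 on the WT-labelled arrays. Car2 and Hba-a1 differed most (-1.87 and 0.83; adjusted p = 0.140 and 0.969). The part of such cells in the higher Sesn3 and Sgk1 signals was not tested.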

How the data were processed

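Labels' protocols name a 3' in vitro transcription kit for the RNA of the 4 sorted samples, read on 1-colour Affymetrix arrays. The deposited values are log2 RMA signals per probe set (range 2.19 to 13.5, array medians 3.53 to 3.55), with RMA and Affymetrix Expression Console 1.1 credited to the submitters' processing notes. They were used as deposited. No detection calls were used, so dimness was judged by rank on the array.

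Of 45037 probe sets, 28898 had 1 gene symbol in the platform annotation, 551 several and 15588 none listed. The labels were compared in limma 3.58.1 (R 4.3.3; eBayes with an intensity trend, no covariate, 2 residual degrees of freedom plus a prior of 5.05), two-sided, with Benjamini-Hochberg adjustment over all probe sets and a threshold of 0.05. A second fit took the brightest single-symbol probe set of each of 17097 genes. The fit was run on simulated data with changes of known size. Those values were independent and drawn from the variance model of the fit, so the run does not test that model on these arrays. An exact permutation test of 2 against 2 arrays cannot go below p = 0.333 and was not used.

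Members and lists were chosen with earlier results of these data known. The text names every member, Gfi1, and per list the called genes (or those differing most where none was called), at most 4 from a pathway list and 2 from a marker or cell cycle list. Sesn2, Bcl6 and some further markers are named besides, after their values were seen. Promoter windows are RefSeq's. Alternatives varied the scaling (centring on the median, quantile normalization once more), the filter (leaving out the dimmest 30% or 50%, or probe sets without a single symbol), the variance prior (no trend, robust), the summary per gene, the covariate (cell cycle mean, replicate number) and the arrays included. Plots used Python 3.11.15 and its matplotlib 3.10.9.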

Additional observations from a re-analysis of the deposited data

How the results depend on the processing

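The 2 called member probe sets stayed 2 under median centring, the second quantile normalization, the filter at 30%, the robust prior and single-symbol probe sets only, and became 3 with the filter at 50% and with the cell cycle covariate. The count was 0 without the intensity trend and 0 when any array was left out. Replicate numbers are shared by the labels without stating what they pair. The deviations of same-numbered arrays correlated with r = 0.30 over probe sets, and with only 2 pairs this does not settle a pairing. With the replicate number as a block, 0 member probe sets were called (Sesn3 adjusted p = 0.0552 and Sgk1 0.0608), while the 2 member genes were still called in the fit of genes (0.0373 and 0.0389). The block changed the call of S1pr1 as well (0.0713). By brightest probe set, the 2 called member genes became 1 without the trend and 0 to 2 with an array left out. Over all probe sets, 345 were called, 205 without the trend, 807 with the cell cycle covariate and 168 to 368 with an array left out. With the covariate, 6 trafficking targets were called, 2 metabolic targets, 2 quiescence genes and 1 upstream regulator, against 3, 0, 0 and 0. Quiescence genes gave 1 call (Ms4a4b) under median centring, the second quantile normalization, the robust prior and either filter, and 0 to 2 with an array left out. Fits without 1 array set 1 array against 2 and assume that the lone array varies like the others. Calls that arise only in such fits, as among upstream regulators, quiescence genes and metabolic targets, are not read as results. Signs turned for some differences that were not called: Foxo3 1450236_PM_at was -0.0138 under the second quantile normalization and -0.18 to 0.22 with an array left out, and Cdkn1b was -0.17 as the mean of its probe sets. With an array left out, Foxo3 1434831_PM_a_at ranged from -0.13 to 0.18, Cdkn1b 1434045_PM_at from -0.11 to 0.20, Ccng2 1416488_PM_at from -0.32 to 0.01 and Ccng2 1448364_PM_at from -0.61 to 0.07. The number of arrays limits what dim probe sets such as that of Foxo1 can show. The Ccng2 values that turned were 0.0133 for 1416488_PM_at without WT replicate 1 and 0.0679 for 1448364_PM_at without hCD2-iCre x Gfi1fl/fl replicate 1. These 13 turns, counted over probe sets and genes, were the only ones among the features that were refitted. Those were the members, Gfi1 and the pathway-list genes named for a call or the largest difference. Sesn2, Bcl6 and the named marker and cell cycle genes were not refitted.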
